A study of Mus musculus with 20 samples.

Results

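The lysosome and vacuolar ATPase genes of iWAT (inguinal white fat) and BAT (brown fat) were examined in Control mice and in mice with an inducible, adipocyte-specific deletion of α4 (Ai-α4KO). Members were chosen by name, as every gene of the table whose symbol begins with Atp6v (23 genes) and 33 listed lysosomal genes, which gave 56 of 25219 genes. They were grouped into 9 V0 and 13 V1 subunit genes of the ATPase, 1 ATPase pseudogene, 10 proteases, 9 glycan and lipid hydrolases, 3 soluble cofactors, 7 membrane proteins, and 4 genes of the MiT/TFE factors and the adaptor Sqstm1. Of the 56 members 51 had enough counts to be tested. The remaining 5 were all V1 or V0 subunit genes with at most 183 counts in any library, namely Atp6v1g3, Atp6v0a4, Atp6v1b1, Atp6v1c2 and Atp6v1e2.

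Lysosomes are the acidic compartments in which cells break down material taken up from outside, lipids delivered from lipid stores and their own parts delivered by autophagy. The vacuolar ATPase acidifies them. Its V1 sector hydrolyses ATP in the cytosol and turns the V0 sector in the membrane, which carries the protons. The hydrolases work in the lumen, cofactors present substrates to them, and membrane proteins such as Lamp1 and Lamp2 line and protect the organelle. Transcription factors of the MiT/TFE family (Tfeb, Tfe3 and Mitf) are known to bind promoters of many lysosomal genes. In fat, adipocytes use lysosomes for part of their lipid turnover, and resident macrophages are rich in lysosomes.

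Each of the 4 groups held 5 libraries. All mice were male, carried floxed α4 alleles according to the methods of the study and received 5 injections of 100 mg/kg tamoxifen within 6 days from 2 months of age, and fat was taken 1 week after recombination. Ai-α4KO mice also carried Adiponectin-CreERT2, a Cre recombinase that tamoxifen activates and that the adiponectin promoter drives in adipocytes, so that other cells of the depots keep α4. Control mice lacked this transgene and are called wild type in the labels. The labels do not say whether the same mice gave both depots, or otherwise describe how the libraries of a group relate, so p-values measure the spread between these libraries. Totals ran from 24023371 to 50384446 counts per library.

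Igbp1, the gene that encodes α4, was at 57.5 to 76.6 CPM in the Control and 10.1 to 11.1 CPM in the Ai-α4KO libraries of iWAT, and at 85.4 to 105 against 13.7 to 25.2 CPM in BAT. CPM are counts scaled to library size, with one TMM scaling of all 20 libraries. Markers of other cells moved with the genotype. In iWAT 13 of 14 macrophage markers were higher in Ai-α4KO libraries, with summed levels of 1694 to 2977 CPM in Control and 9580.4 to 12710 CPM in Ai-α4KO libraries. In BAT 14 of 14 were higher, with sums of 342 to 784 against 5497 to 9201 CPM. None of the 14 was at 0 in any library, and Trem2 and Itgax had the lowest counts, at 18 and 21. Of 5 neutrophil markers, 3 were higher in Ai-α4KO iWAT (summed level 18.9 to 88.8 against 136 to 461 CPM) and 5 in BAT (11.7 to 35 against 193 to 345 CPM). Of 10 adipocyte markers, 9 were lower in Ai-α4KO iWAT (summed level 33074.5 to 44849.7 against 13091 to 18493 CPM) and 7 in BAT (26752 to 28894 against 13846 to 17433 CPM). The brown adipocyte markers Ucp1, Cidea and Elovl3 summed to 7100.2 to 10947.5 CPM in Control BAT and 1110.3 to 2600.2 CPM in Ai-α4KO BAT, with 2 of 3 lower, and to 72.5 to 771 against 3.47 to 12.3 CPM in iWAT, with 3 of 3 lower. Skeletal muscle markers summed to 14862 to 50894 CPM in Ai-α4KO BAT and 1066 to 10569 CPM in Control BAT, and reached 7904 CPM in Control iWAT library 4 and 6100.5 CPM in Ai-α4KO iWAT library 1, where the medians of these groups were 123 and 101 CPM. B cell markers, at a median of 8.03 CPM in Control iWAT, summed to 491 CPM in library 1 and 196 CPM in library 4 of that group. The part of these cells in the results below was not tested, and in bulk tissue fewer cells of a type and less RNA per cell cannot be told apart.

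Most of the members tested were higher in Ai-α4KO fat. With the threshold at an adjusted p of 0.01 (quasi-likelihood test of edgeR within each depot, Benjamini-Hochberg over all genes tested), 33 of the 51 tested members were higher in Ai-α4KO iWAT, where 21.5% of all tested genes were higher. No member was lower in iWAT by this test, against 18.8% of all genes, while 2 members were lower at an unadjusted p below 0.05, DESeq2 called 1 and limma 0. In BAT 34 members were higher and 2 were lower, the latter being Npc1 and Atp6v0a2, where 25% of all genes were higher and 24.8% lower. With a change of at least 2-fold also required, 15 members were higher in iWAT (11.3% of all genes) and 19 in BAT (18.2%), and no member was lower by this rule in either depot, against 10.7% and 13.3% of all genes. The share of all genes that passed in both depots, or in neither, was not counted, so the next counts describe the members only. In both depots 30 members were higher, and 12 passed in neither. Another 3 passed in iWAT and not in BAT (Lipa, Psap and Tfe3), and 4 passed as higher in BAT and not in iWAT (Ctsk, Man2b1, Atp6v0a1 and Atp6v0e2). Of these 7 the interaction test given further on passed for Lipa, Ctsk and Atp6v0e2, so a difference between the depots is not shown for the other four. The counts include the pseudogene Atp6v0c-ps2, which had 0 to 16 counts in the Control libraries and whose reads cannot be separated from those of Atp6v0c. Without it 32 and 33 of 50 members were higher, 14 and 18 of them by at least 2-fold. Leaving out the libraries with most muscle reads kept 30 of the 33 calls in iWAT and 33 of the 36 in BAT. A muscle marker score as a covariate kept 27 of the 36 in BAT, with Atp6v1a, Atp6v1c1, Atp6v1h, Ctsb, Lamp2, Tpp1, Atp6v0e2, Npc1 and Atp6v0a2 lost. Summed muscle markers did not overlap between the genotypes in BAT, so the score and the genotype are hard to separate. With the score, 1968 of all genes were called higher and 2021 lower in BAT, against 3582 and 3560 without it. The part of muscle in the lost calls was not tested. Leaving out Control iWAT libraries 1 and 4 kept 26 of the 33 calls in iWAT, with Atp6v1a, Atp6v1c1, Atp6v0c-ps2, Ctsb, Tpp1, Psap and Ppt1 lost. Library size alone in place of TMM factors raised the median of all genes to 0.13 in iWAT and 0.23 in BAT and turned 3582 higher and 3560 lower genes in BAT into 4811 and 2271, and neither member lower in BAT passed then. With limma on log2(FPKM + 1) the split of all called genes went from 3140 higher and 2749 lower to 3849 and 2203 in iWAT, and to 4666 and 2285 in BAT.

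The classes differed in size of change. The 17 tested ATPase subunits had a median change of 0.40 (log2) in iWAT against 0.54 in BAT, with 8 higher in iWAT, and in BAT 10 higher and 1 lower. Only Atp6v0d2 in iWAT and Atp6v0d2 and Atp6v0e2 in BAT rose by at least 2-fold among these subunits. The 19 hydrolases had medians of 0.88 in iWAT and 1.36 in BAT, with 15 and 16 higher and 8 and 11 of them by at least 2-fold. The 7 membrane proteins lay between in iWAT (median 0.65, 4 higher) and had a median of 0.68 in BAT (4 higher and 1 lower), though by mean log2 CPM each Ai-α4KO BAT library was further above Control for them than for the ATPase. The medians of all tested genes were 0.015 in iWAT and -0.032 in BAT. No test was made between the classes, and the counts and medians describe them. The plot of the genotype effect shows most ATPase subunits between 0 and 1, with Atp6v0d2 far above them, Atp6v0e2 lowest in iWAT and Atp6v0a2 lowest in BAT, and a wide spread among proteases.

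**Figure D1:**
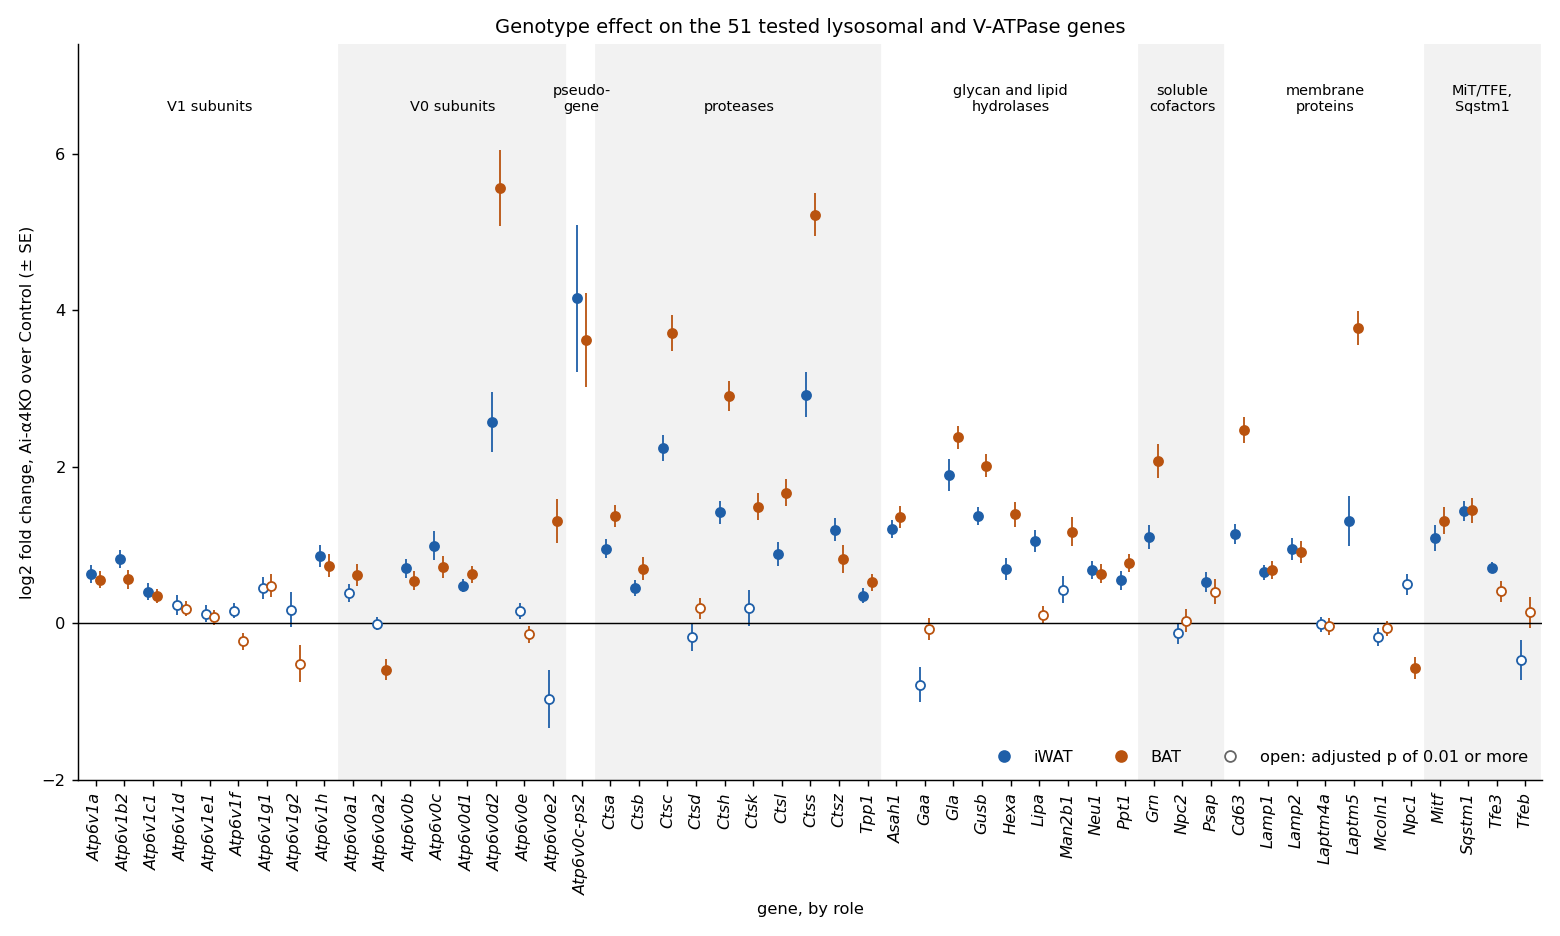
Log2 fold change of Ai-α4KO over Control (vertical axis, with standard error) for each of the 51 tested genes (horizontal axis, by role) in iWAT (blue) and BAT (orange), where filled points passed an adjusted p of 0.01. Most ATPase subunits lie between 0 and 1, whereas Ctss and Atp6v0d2 in BAT lie above 5.

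As MiT/TFE factors bind the E-box TCACGTG, the promoter windows of the members were searched for it. RefSeq windows on GRCm38.p6, from 250 bases before to 50 after a gene's start, were found for 45 of the 56 members. A symbol can have several windows, one for each RefSeq start (32851 windows for 27025 symbols), and was counted once if any of them held the motif. The letters TCACGTG, on either strand and also where they overlap as TCACGTGA, occur in 10 of the 45 (22.2%), and in 4.29% of all 27025 gene symbols with a window. The shorter CACGTG occurs in 11 (24.4%) against 8.09%. Among members called higher in Ai-α4KO iWAT the longer motif was in 6 of 25 (24%), and among those not called higher in 4 of 20 (20%). In BAT these were 6 of 26 (23.1%) and 4 of 19 (21.1%). No test was made of these shares. Of the ATPase genes with a window 4 of 16 held the longer motif (25%), and of the other members 6 of 29 (20.7%). Stretches upstream of a RefSeq start, which can differ from the start in the deposited table, are shown for 8 members that carry it, 5 that rose in both depots (Lamp1, Ctsa, Gla, Atp6v0b and Atp6v1a) and 3 that passed in neither (Mcoln1, Ctsd and Gaa), with the motif in capitals, 5′ to 3′ on the strand of the gene.
Lamp1: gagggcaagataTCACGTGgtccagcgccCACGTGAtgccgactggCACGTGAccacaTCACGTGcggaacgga
Mcoln1: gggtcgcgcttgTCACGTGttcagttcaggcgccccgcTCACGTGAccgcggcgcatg
Ctsa: atgagcaaactgTCACGTGAtgcag
Gla: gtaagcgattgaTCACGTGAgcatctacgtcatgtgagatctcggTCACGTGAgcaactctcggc
Gaa: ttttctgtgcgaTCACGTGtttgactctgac
Ctsd: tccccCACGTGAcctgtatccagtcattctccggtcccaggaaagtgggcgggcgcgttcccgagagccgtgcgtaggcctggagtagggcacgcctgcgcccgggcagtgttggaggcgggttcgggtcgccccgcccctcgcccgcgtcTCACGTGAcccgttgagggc
Atp6v0b: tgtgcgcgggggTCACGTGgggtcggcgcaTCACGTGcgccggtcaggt
Atp6v1a: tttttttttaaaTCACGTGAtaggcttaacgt
The stretch of Lamp1 (chr8:13159087-13159160, plus strand) holds 4 copies and ends at the base before its RefSeq start, beyond the start at 13159135 in the deposited table. Those of Mcoln1 (chr8:3500435-3500492, plus strand), Gla (chrX:134601181-134601245, minus strand), Ctsd (chr7:142387907-142388077, minus strand) and Atp6v0b (chr4:117887330-117887378, minus strand) hold 2. The stretches of Ctsa (chr2:164833748-164833772, plus strand), Gaa (chr11:119267810-119267840, plus strand) and Atp6v1a (chr16:44139372-44139403, minus strand) hold 1 each. That of Ctsa belongs to one of its 2 windows and lies inside the gene as the deposited table places it, which starts at 164832872. A match describes the letters of the window only.

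Among V1 subunits, the peripheral sector, 4 of 9 tested genes rose in iWAT and the same 4 in BAT, where 21.5% and 25% of all genes were higher. The other 5 passed in neither depot. Atp6v1h encodes subunit H, which couples and regulates the sectors. It stood at 116, 143, 141, 151 and 138 CPM in the Control and 178, 296, 269, 229.5 and 283 CPM in the Ai-α4KO libraries of iWAT, libraries 1 to 5 in order. The BAT libraries held 135, 168, 133, 132 and 114 CPM in Control and 259, 234, 288, 187 and 189.8 CPM in Ai-α4KO mice. The genotypes did not overlap in either depot. On the log2 scale it rose by 0.86 ± 0.14 in iWAT (adjusted p = 0.000403, edgeR) and 0.73 ± 0.15 in BAT (adjusted p = 0.000962, edgeR), where the error is the standard error. Atp6v1b2, the widely expressed B subunit of the catalytic head, was 251, 197, 269.8, 219 and 226 CPM in Control and 349.6, 431, 466, 388 and 423 CPM in Ai-α4KO iWAT. Control BAT libraries stood at 246, 257, 188, 238 and 217 CPM and Ai-α4KO BAT libraries at 368, 406, 309, 303 and 345 CPM. Here too every Ai-α4KO library was above every Control library, with log2 fold changes of 0.82 ± 0.12 (adjusted p = 0.000154, edgeR) and 0.56 ± 0.12 (adjusted p = 0.0017).

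Atp6v1a, the catalytic A subunit and partner of Atp6v1b2 in the head, rose by 0.63 and 0.56 on the log2 scale, from 181 ± 12.6 to 282 ± 41.8 CPM in iWAT and from 187 ± 18.1 to 282 ± 29.5 CPM in BAT (SD, n = 5). Atp6v1c1, a subunit of the stalk that joins the sectors, rose by 0.40 and 0.35, but its adjusted p of 0.00813 in iWAT (edgeR) lay close to the threshold. The iWAT call was lost with any library left out but Ai-α4KO library 1, and the BAT call without Control library 1, 3, 4 or 5 or Ai-α4KO library 1 or 2. The stalk and rotor subunits Atp6v1d, Atp6v1e1, Atp6v1f, Atp6v1g1 and Atp6v1g2 did not pass. Atp6v1e1, the E subunit of the peripheral stalk, was 213 ± 25.1 CPM in Control and 233 ± 18.2 CPM in Ai-α4KO iWAT, and 259.8 ± 16.4 against 281 ± 18.9 CPM in BAT (SD, n = 5). Atp6v1g1, its G partner, had log2 fold changes of 0.45 ± 0.14 (adjusted p = 0.0203, edgeR) and 0.48 ± 0.15 (adjusted p = 0.0143), which would pass at 0.05. Atp6v1f and Atp6v1g2 had positive estimates in iWAT (0.16 and 0.17) and negative ones in BAT (-0.23 and -0.52), and Atp6v1d was at 0.23 and 0.19.

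Among V0 subunits, the membrane sector, 4 of 8 tested genes rose in iWAT, while in BAT 6 rose and 1 fell. Atp6v0d2 had the highest estimate of all members in BAT, from few counts in Control BAT (4 to 47 per library). With limma on log2(FPKM + 1) it was 3.72 there, under the 5.39 of Ctss. Atp6v0d2 encodes the d2 isoform of the subunit that sits on the proton ring, an isoform known from osteoclasts and macrophages (chromosome 4, 19876838 to 19922566, minus strand, mm10). In iWAT it was 5.99, 2.7, 3.23, 1.19 and 1.79 CPM in Control and 22.8, 15.9, 20.5, 16.7 and 13.5 CPM in Ai-α4KO libraries. For BAT the values were 1.5, 0.548, 0.906, 1.66 and 0.159 CPM in Control against 24.5, 55.6, 45.6, 35.7 and 70.1 CPM in Ai-α4KO libraries. The genotypes were far apart in both depots, Control iWAT library 1 being the highest of its group. Its log2 change came to 2.57 ± 0.38 in iWAT (adjusted p = 0.000199, edgeR) and 5.56 ± 0.49 in BAT (adjusted p = 1.45e-06, edgeR). The widely expressed d1 isoform, Atp6v0d1, rose far less, by 0.48 and 0.62, from 110.0 ± 7.28 to 154 ± 5.84 CPM in iWAT and from 75.8 ± 5.84 to 119.7 ± 13.7 CPM in BAT (SD, n = 5).

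Atp6v0a2, the a2 isoform of the large membrane subunit, known from the Golgi and endosomes, was 1 of the 2 members that fell. In BAT it was 106, 91.4, 113, 82.5 and 124 CPM in Control and 81.3, 74.1, 65.4, 70.5 and 60.9 CPM in Ai-α4KO libraries. The genotypes came close without overlapping, and in iWAT, at 69.7 to 83.7 and 71.1 to 84.3 CPM, they overlapped. The log2 fold change was -0.59 ± 0.13 in BAT (adjusted p = 0.00181, edgeR) and -0.0061 ± 0.082 in iWAT (adjusted p = 0.956). The BAT call was lost without normalization factors, under limma on FPKM and with muscle reads taken into account. Atp6v0a1, the other measured a isoform among the members, rose in BAT (0.62 ± 0.14, adjusted p = 0.00209, edgeR), while in iWAT its change of 0.39 ± 0.11 did not pass (adjusted p = 0.0135).

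Atp6v0e2, an isoform of the small subunit e, had estimates of opposite sign in the depots. In iWAT it was 25, 7.61, 7.89, 20.8 and 24.6 CPM in Control and 11.9, 5.17, 9.74, 9.06 and 8.43 CPM in Ai-α4KO libraries, with Control libraries 2 and 3 lying within the range of Ai-α4KO. The BAT libraries held 7.24, 11.9, 6.39, 7.69 and 8.08 CPM in Control and 13.9, 12.8, 19.98, 37.5 and 20.1 CPM in Ai-α4KO mice, which did not overlap. The change passed in BAT (1.3 ± 0.28, adjusted p = 0.00173, edgeR) and not in iWAT (-0.96 ± 0.37, adjusted p = 0.0451). The BAT call was lost when muscle markers were taken into account in either way, and the highest Ai-α4KO BAT value was in library 4. The sister gene Atp6v0e did not pass in either depot (0.16 and -0.14).

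The proton ring itself is built from Atp6v0c and Atp6v0b. Atp6v0b rose by 0.70 in iWAT and 0.54 in BAT, from 125 ± 15.4 to 204 ± 29.1 CPM and from 132 ± 13.2 to 197 ± 27.4 CPM (SD, n = 5). Atp6v0c rose by 0.99 (adjusted p = 0.000844, edgeR) and 0.72 (adjusted p = 0.000688). Its value is uncertain, since 5530 of the 5531 bases of the pseudogene Atp6v0c-ps2 on chromosome 17 lie within the same stretch and the deposited counts of Atp6v0c are fractions in every library. The pseudogene was listed at 0.293 ± 0.225 and 5.16 ± 5.36 CPM in iWAT and 0.431 ± 0.283 and 5.39 ± 2.77 CPM in BAT (SD, n = 5), and how its reads were assigned is not given in the sources used here. The sum of both entries, whatever the division of reads between them, was 153 ± 27.4 CPM in Control and 309.6 ± 74.8 CPM in Ai-α4KO iWAT, and 127 ± 9.76 against 219 ± 42.3 CPM in BAT (SD, n = 5).

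Per transcript length, as the FPKM values the authors deposited, the isoform genes of 3 V0 subunits held different shares in the groups, given here as a description with no test. Atp6v0d2 made up 1.75 ± 1.15% of the FPKM of subunit d in Control and 6.96 ± 1.41% in Ai-α4KO iWAT, and 0.829 ± 0.578% and 19.8 ± 6.43% in BAT (SD, n = 5). Tcirg1, the a3 isoform of lysosomes and of the osteoclast membrane, which is no Atp6v symbol but was listed with the isoforms, made up 29.02 ± 5.06% of subunit a in Control and 50.8 ± 4.87% in Ai-α4KO iWAT, and 16.1 ± 2.76% and 41.8 ± 6.28% in BAT. Over the same groups Atp6v0a2 held 31.9 ± 4.31%, 18.7 ± 2.35%, 48.5 ± 3.73% and 22.01 ± 3.47%. For subunit e the minor isoform Atp6v0e2 held 4.22 ± 2.26% in Control and 1.98 ± 0.577% in Ai-α4KO iWAT, and 1.61 ± 0.362% and 4.3 ± 2.19% in BAT. For subunits B, C, E and G a single gene (Atp6v1b2, Atp6v1c1, Atp6v1e1 or Atp6v1g1) held at least 98.3% of the FPKM in every group mean. The bars of isoform shares show Tcirg1 and Atp6v0d2 wider in Ai-α4KO than in Control fat of both depots.

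**Figure D2:**
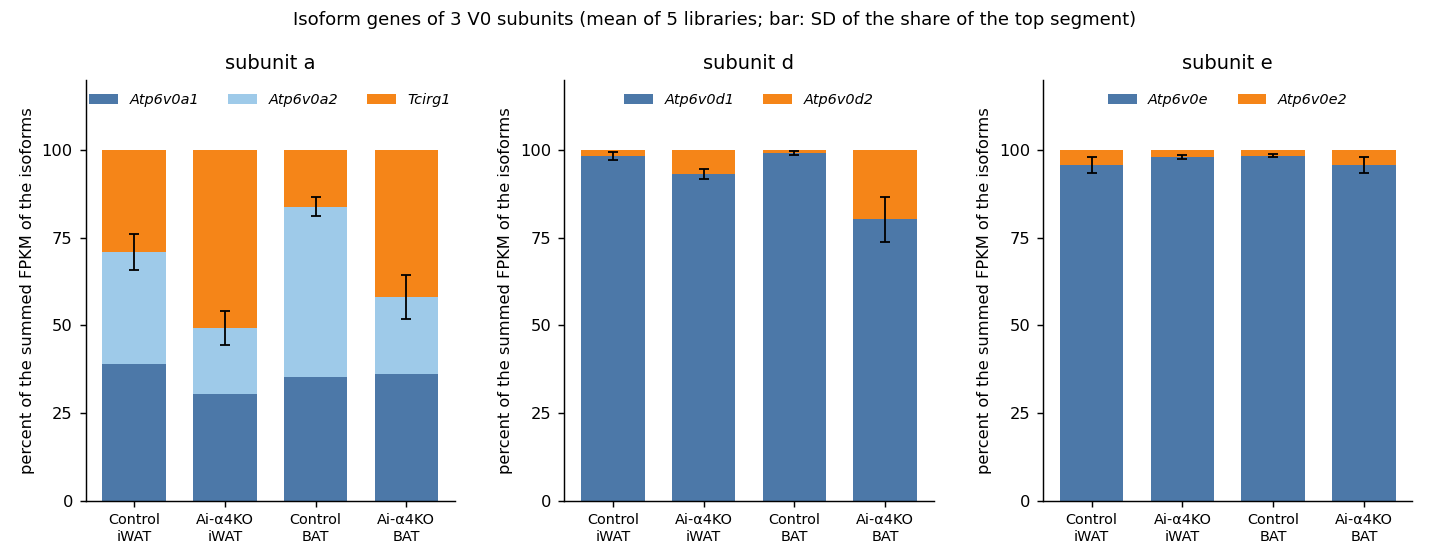
Share of each isoform gene in the summed FPKM of subunits a, d and e (vertical axis, percent) in the 4 groups (mean of 5 libraries, with the SD of the share of the top segment). Tcirg1 reached 50.8% in Ai-α4KO iWAT and Atp6v0d2 19.8% in Ai-α4KO BAT, and Atp6v0a4, at no more than 0.032% in any group mean, is left out.

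Among the 10 proteases 8 rose in iWAT and 9 in BAT. Ctss, the cysteine protease cathepsin S of antigen-presenting cells (chromosome 3, 95526786 to 95556405, plus strand, mm10), changed most. In iWAT it was 319.9, 152, 132, 124 and 127 CPM in Control and 1151, 1362, 1704, 1085 and 1199 CPM in Ai-α4KO libraries. Control BAT libraries stood at 31.7, 32.9, 21, 40.4 and 22.7 CPM and Ai-α4KO BAT libraries at 855, 1272, 1095, 816 and 1627 CPM. The genotypes did not overlap, although Control iWAT library 1 was above the others of its group. The change came to 2.92 ± 0.29 (log2) in iWAT (adjusted p = 1.31e-05, edgeR) and 5.22 ± 0.27 in BAT (adjusted p = 5.83e-08, edgeR). Its FPKM were 114 ± 60.8 in Control and 935 ± 167 in Ai-α4KO iWAT, against 17 ± 4.76 and 762 ± 236 for BAT (SD, n = 5), which placed it at rank 2 of the tested members in Ai-α4KO iWAT and at rank 3 in Ai-α4KO BAT.

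Ctsc, which activates serine proteases of immune cells, was 190.5, 253, 211, 159 and 203 CPM in Control and 679, 963, 1199, 936 and 1039 CPM in Ai-α4KO iWAT. For BAT the values were 26.6, 57.2, 31.7, 55.5 and 34.4 CPM in Control against 584, 625, 571, 430.0 and 538 CPM in Ai-α4KO libraries, and the genotypes were apart in both depots. It rose by 2.24 in iWAT (adjusted p = 3.66e-06, edgeR) and 3.71 in BAT (adjusted p = 1.48e-07). Ctsh, an aminopeptidase, rose by 1.42 and 2.9, from 136 ± 25.6 to 364 ± 40.2 CPM in iWAT and from 31.2 ± 8.98 to 238 ± 25.9 CPM in BAT (SD, n = 5). Ctsz, a carboxypeptidase, was the one protease with a larger estimate in iWAT (1.2) than in BAT (0.82), and the carboxypeptidase Ctsa rose by 0.95 and 1.37. The endopeptidases Ctsl and Ctsb rose by 0.88 and 0.44 in iWAT and by 1.67 and 0.70 in BAT, and the tripeptidyl peptidase Tpp1 by 0.35 and 0.52. In iWAT the calls of Ctsb and Tpp1 were lost under upper-quartile normalization and without Control libraries 1 and 4. With single libraries left out, that of Ctsb was lost without Control library 1, 2, 3 or 4 and that of Tpp1 without any but Control library 5 and Ai-α4KO library 1.

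Ctsd, the aspartic protease with the highest FPKM of all tested members in each of the 4 groups, did not pass in either depot. In iWAT it was 2429, 2108, 2552, 2594 and 3403 CPM in Control and 3125, 2373, 2239, 2094 and 1754 CPM in Ai-α4KO libraries. In BAT it was 2009, 2179, 2244, 2007 and 2157 CPM in Control and 2458, 3086, 1963, 2283 and 2602 CPM in Ai-α4KO libraries. The ranges of the genotypes overlapped in both depots, with log2 fold changes of -0.18 ± 0.17 (adjusted p = 0.402, edgeR) and 0.19 ± 0.14 (adjusted p = 0.245). Ctsk, a collagenase best known from osteoclasts, rose in BAT, from 12.1 ± 2.64 to 34.7 ± 5.63 CPM (SD, n = 5, log2 fold change 1.49 ± 0.17, adjusted p = 1.42e-05, edgeR). In iWAT, where its Control level of 49.3 ± 14.6 CPM was higher, its change of 0.20 ± 0.23 did not pass (adjusted p = 0.484).

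**Figure D3:**
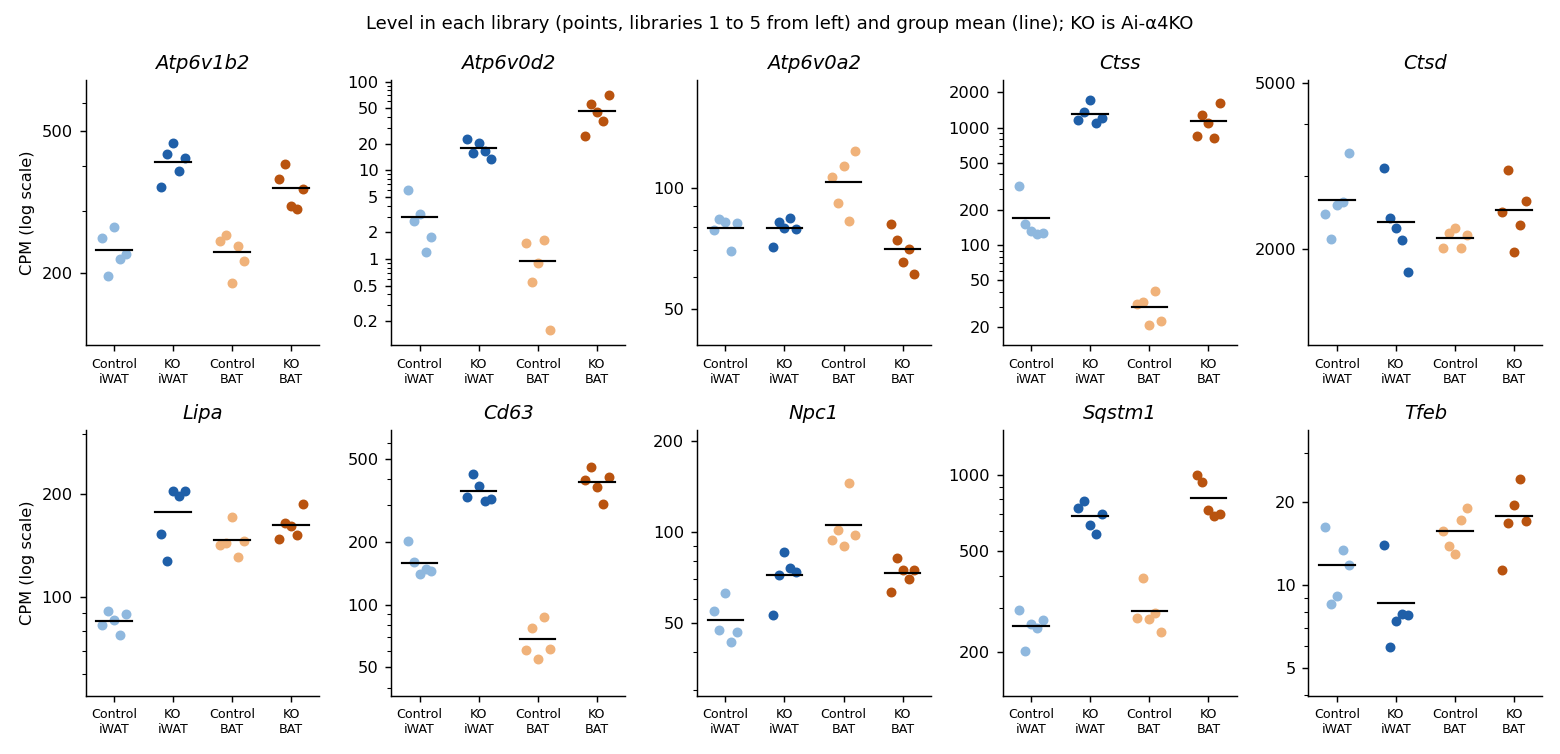
CPM (vertical axis, log scale) of 10 members in each library (points, libraries 1 to 5 from left to right) with the group mean (line) in the 4 groups. Ctss and Atp6v0d2 are apart between the genotypes in both depots, Ctsd overlaps, and Lipa is apart in iWAT with overlap in BAT.

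Among the 9 glycan and lipid hydrolases 7 rose in each depot. Gla, the galactosidase that removes terminal galactose from glycolipids, was 16.5, 10.7, 11, 8.85 and 9.32 CPM in Control and 37.7, 51.5, 53, 33.2 and 34.9 CPM in Ai-α4KO iWAT. The BAT libraries held 8.29, 9.35, 7.66, 8.04 and 8.48 CPM in Control and 47.3, 57.1, 42.4, 31.8 and 43.4 CPM in Ai-α4KO mice. Control values lay close together except for iWAT library 1, and the genotypes did not overlap. It rose by 1.89 in iWAT (adjusted p = 2.23e-05, edgeR) and 2.37 in BAT (adjusted p = 1.54e-07). Gusb, the glucuronidase of glycosaminoglycan breakdown, rose by 1.37 and 2.01, from 74.9 ± 9.59 to 194 ± 20.5 CPM in iWAT and from 34.9 ± 2.97 to 144 ± 29.6 CPM in BAT (SD, n = 5). Asah1, the acid ceramidase, rose by 1.21 (adjusted p = 1.17e-05, edgeR) and 1.36 (adjusted p = 7.74e-06), from 164 ± 11.6 to 381 ± 53.3 CPM and from 94.7 ± 18.5 to 248 ± 32.8 CPM (SD, n = 5). Hexa, a chain of the enzyme that degrades GM2 ganglioside, rose by 0.69 and 1.39. The sialidase Neu1 rose by 0.68 and 0.63, and the thioesterase Ppt1 by 0.55 and 0.77, its iWAT call being lost without Control library 1 or 3. Man2b1, the alpha-mannosidase, rose in BAT (1.17 ± 0.18, adjusted p = 0.000159, edgeR) but did not pass in iWAT (0.43 ± 0.17, adjusted p = 0.0505), where Ai-α4KO library 2 was the lowest of its group.

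Lipa, the acid lipase that splits cholesteryl esters and triglycerides, rose in iWAT alone. Its libraries there were 82.9, 91.2, 85.9, 77.6 and 89.2 CPM in Control and 153, 128, 205, 197 and 204 CPM in Ai-α4KO. In BAT they were 142, 144, 171, 131 and 146 CPM in Control and 148, 165, 161, 152 and 187 CPM in Ai-α4KO. Control iWAT was thus the lowest of the 4 groups, below and apart from the other 3, which overlapped with each other. On the log2 scale the change was 1.05 ± 0.14 for iWAT (adjusted p = 8.4e-05, edgeR) and 0.11 ± 0.11 in BAT (adjusted p = 0.405). Gaa, the glucosidase that degrades glycogen in lysosomes, had a negative estimate in iWAT. Its values there were 118, 83.3, 82.4, 78.8 and 116 CPM in Control and 85.8, 36.1, 51.1, 59.6 and 45.6 CPM in Ai-α4KO libraries, where Ai-α4KO library 1 lay within the range of Control. The change of -0.79 ± 0.22 missed the threshold (adjusted p = 0.011, edgeR) and passed under 7 of the 12 other settings, always with a negative sign. In BAT it was -0.077 ± 0.14 (adjusted p = 0.653).

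Of the 3 soluble cofactors Grn, which encodes the progranulin precursor of lysosomal granulins, rose in both depots. It was 427, 318, 313, 279 and 397 CPM in Control and 868, 610.4, 824, 685 and 748 CPM in Ai-α4KO iWAT. Control BAT libraries stood at 120.2, 91, 99, 140.2 and 156 CPM and Ai-α4KO BAT libraries at 595, 724, 387, 396 and 526 CPM, again without overlap. The log2 fold changes were 1.1 ± 0.15 (adjusted p = 9.9e-05, edgeR) and 2.07 ± 0.21 (adjusted p = 5.47e-06). Psap, the precursor of the saposins that present sphingolipids to hydrolases, rose in iWAT (0.53 ± 0.13, adjusted p = 0.00445, edgeR), a call lost without Control library 2, 3, 4 or 5 or Ai-α4KO library 3 or 5. In BAT its estimate was 0.40 ± 0.16 (adjusted p = 0.043). Npc2, the lumenal carrier that hands cholesterol to Npc1, did not pass, at 882 ± 144 and 809 ± 73.7 CPM in iWAT and 630.3 ± 84.5 and 661 ± 112 CPM in BAT (SD, n = 5, log2 fold changes -0.13 ± 0.13 and 0.033 ± 0.15).

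Among the 7 membrane proteins Lamp1, Lamp2, Cd63 and Laptm5 rose in both depots. Lamp1, the most abundant of them by FPKM in every group, was 877, 859, 836, 853 and 972 CPM in Control and 1363, 1452, 1504, 1308 and 1309 CPM in Ai-α4KO iWAT. For BAT the values were 833, 845, 784, 767 and 865 CPM in Control against 1287, 1496, 1238, 1227 and 1489 CPM in Ai-α4KO libraries. The groups were tight and did not overlap between genotypes. The log2 fold changes were 0.65 ± 0.093 (adjusted p = 0.000152, edgeR) and 0.68 ± 0.11 (adjusted p = 0.000258), and those of Lamp2, its relative with a role in autophagy, 0.95 ± 0.14 and 0.91 ± 0.14. Cd63, a tetraspanin of late endosomes, was 203, 161, 140.0, 149 and 145 CPM in Control and 329, 425, 373, 317 and 323 CPM in Ai-α4KO iWAT. In BAT it was 61, 77.4, 54.9, 87.7 and 61.5 CPM in Control and 398, 461, 366, 304 and 411 CPM in Ai-α4KO libraries, so that it started lower in BAT and ended at like levels in both depots. It rose by 1.14 in iWAT (adjusted p = 3.77e-05, edgeR) and 2.47 in BAT (adjusted p = 1.83e-07). Laptm5, a lysosomal membrane protein of blood cells, was 309, 96, 99.3, 180.2 and 102 CPM in Control and 388, 307, 457, 379 and 421 CPM in Ai-α4KO iWAT. The BAT libraries held 15.3, 17.7, 14.9, 27.9 and 16.9 CPM in Control and 229.8, 310.4, 248, 194 and 313 CPM in Ai-α4KO mice. In BAT the genotypes were far apart, whereas in iWAT Control library 1 reached above the lowest Ai-α4KO library. Its change in iWAT was 1.3 ± 0.32 (adjusted p = 0.00496, edgeR), lost without Control library 2, 3 or 5 or Ai-α4KO library 3 or 5, and in BAT 3.77 ± 0.22 (adjusted p = 9.52e-08).

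Npc1, the membrane transporter that exports cholesterol from lysosomes, had estimates of opposite sign in the 2 depots. In iWAT it was 54.7, 47.5, 62.8, 43.1 and 46.8 CPM in Control and 53.1, 72.2, 85.7, 76.1 and 73.7 CPM in Ai-α4KO libraries. Control BAT libraries stood at 94.2, 102, 89.4, 144 and 97.5 CPM and Ai-α4KO BAT libraries at 63.4, 82, 74.6, 69.9 and 74.5 CPM. The groups overlapped in iWAT through Ai-α4KO library 1, and in BAT the highest Ai-α4KO library lay under the lowest of Control. It fell by 0.57 on the log2 scale in BAT (standard error 0.14, adjusted p = 0.00414, edgeR), and in iWAT its estimate of 0.50 ± 0.14 just missed the threshold (adjusted p = 0.0104). The iWAT estimate passed under 8 of the 12 other settings. The BAT call was lost under 6 of 12 other settings, among them library size alone, limma on FPKM and both ways of taking muscle reads into account, and without Ai-α4KO BAT library 1 or 4. Mcoln1, the calcium channel mucolipin, and Laptm4a, a small protein of late endosomes, did not pass and had small estimates (-0.17 ± 0.12 and -0.066 ± 0.10 for Mcoln1, -0.016 ± 0.10 and -0.038 ± 0.11 for Laptm4a).

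Among the MiT/TFE factors Mitf rose in both depots, Tfe3 in iWAT, and Tfeb did not pass. Mitf was 15.2, 22.4, 16, 15.2 and 17.7 CPM in Control and 25.9, 32.6, 39.8, 40.04 and 46.3 CPM in Ai-α4KO iWAT. For BAT the values were 9.65, 16.7, 12.2, 15.1 and 10.5 CPM in Control against 26.3, 30.3, 36, 33.2 and 37.1 CPM in Ai-α4KO libraries. No Ai-α4KO library reached down to its Control group. It rose by 1.09 (adjusted p = 0.000237, edgeR) and 1.31 (adjusted p = 3.28e-05). Tfe3 went from 48.2 ± 2.18 to 79.2 ± 3.72 CPM in iWAT (SD, n = 5, log2 fold change 0.71 ± 0.073, adjusted p = 1.7e-05, edgeR), and in BAT its estimate was 0.41 ± 0.13 (adjusted p = 0.0157). The BAT estimate passed under 8 of the 12 other settings. Tfeb was 16.3, 8.55, 9.09, 13.3 and 11.8 CPM in Control and 13.9, 5.95, 7.38, 7.86 and 7.78 CPM in Ai-α4KO iWAT. In BAT it was 15.7, 13.9, 13, 17.2 and 19 CPM in Control and 11.3, 16.7, 19.5, 24.3 and 17.1 CPM in Ai-α4KO libraries. The genotypes overlapped in both depots (log2 fold changes -0.47 ± 0.25 and 0.14 ± 0.19, adjusted p = 0.142 and 0.549, edgeR).

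Sqstm1, the p62 adaptor that links cargo to autophagosomes, rose to a like extent in both depots. It was 292, 202, 257, 248 and 268 CPM in Control and 742, 790.5, 633, 583 and 699.8 CPM in Ai-α4KO iWAT. The BAT libraries held 272, 391, 269, 285 and 239 CPM in Control and 1002, 940.5, 724, 687 and 699 CPM in Ai-α4KO mice. All 10 Ai-α4KO libraries were above all 10 Control libraries. The log2 fold changes were 1.44 ± 0.13 (adjusted p = 7.99e-06, edgeR) and 1.44 ± 0.16 (adjusted p = 9.85e-06).

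Other genes of the pathway, were counted from lists. Of 10 further ATPase isoform and accessory genes, 4 were higher in iWAT and 5 in BAT (medians 0.44 and 0.37). Tcirg1 rose by 1.54 and 1.96. The accessory subunit Atp6ap2, also known as the prorenin receptor, rose by 1.68 and 1.43, and Atp6ap1 by 0.48 and 0.72. Of 50 other lysosomal genes, iWAT had 20 higher with 8 lower, and BAT 16 higher with 10 lower, with medians of 0.22 and 0.16, set against shares over all genes of 21.5% (higher) and 18.8% (lower) in iWAT and of 25% and 24.8% in BAT. The lower counts in both depots and the higher count in BAT lay near these shares. The asparaginyl protease Lgmn rose by 2.37 and 3.21, and the lysosomal membrane protein Scarb2 by 0.74 and 0.50. Cd68, a macrophage membrane protein, rose by 1.86 and 3.98. Gpnmb rose in BAT (3.59), while in iWAT, where Control library 1 stood at 224 CPM and the others at 5.99 to 15.9 CPM, its estimate of -0.22 did not pass. Acp5, the tartrate-resistant acid phosphatase, fell by 1.6 in iWAT and by 0.72 in BAT.

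Of 33 autophagy genes, iWAT had 7 higher with 11 lower, and BAT 6 higher with 13 lower, with medians of -0.19 in both depots, beside the same shares of all genes (21.5% higher and 18.8% lower in iWAT, 25% and 24.8% in BAT). Map1lc3b, which encodes a form of the autophagosome protein LC3, fell by 0.50 in BAT (adjusted p = 0.0029, edgeR) and was at -0.40 in iWAT (adjusted p = 0.0235). Flcn, the folliculin gene, fell by 0.68 in BAT and was at 0.18 in iWAT, where it did not pass. Rragd, a Rag GTPase of the lysosomal surface, rose by 2.38 in BAT (19.6 ± 11.5 to 104 ± 66.6 CPM, SD, n = 5), and did not pass in iWAT (0.061 ± 0.99). Its highest values were in the libraries with most muscle marker reads, at 216 CPM in Ai-α4KO BAT library 4, 15.1 CPM in Control iWAT library 4 (the others at 0.338 to 1.8) and 11.2 CPM in Ai-α4KO iWAT library 1 (the others at 1.69 to 2.69), and the part of muscle in its change was not tested.

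Whether the response to α4 deletion differed between the depots was tested as an interaction in one fit of all 20 libraries. Of the 51 members 10 passed an adjusted p of 0.01 (edgeR), where 4.86% of all genes did. The change was larger in BAT for 8 of them. These were the membrane proteins Laptm5 (2.49, adjusted p = 0.000746) and Cd63 (1.36, adjusted p = 0.000544), the proteases Ctss (2.32), Ctsh (1.51), Ctsc (1.5) and Ctsk (1.32), and the ATPase isoforms Atp6v0d2 (3.02) and Atp6v0e2 (2.3). For Npc1 (-1.03, adjusted p = 0.00291, edgeR) and Lipa (-0.91, adjusted p = 0.00234) the change was lower in BAT than in iWAT. The V1 subunits and the lysosomal lining proteins Lamp1 (0.062 ± 0.13) and Lamp2 (-0.014 ± 0.19) did not pass. Of the macrophage markers 10 of 14 also passed the interaction with the larger change in BAT. The calls of Atp6v0e2, Lipa and Npc1 did not hold without Control iWAT libraries 1 and 4, and those of Atp6v0d2, Atp6v0e2, Lipa and Npc1 did not hold without the libraries with most muscle reads. Atp6v0e2 was also lost under both limma fits and the replicate block, and Ctsk under the block. With single libraries left out, Npc1 was lost without Ai-α4KO iWAT library 3 and Lipa without library 3, 4 or 5 of that group. Ctsk was lost without Control iWAT library 2, Control BAT library 1, 2, 3 or 5 or Ai-α4KO BAT library 4, and Atp6v0e2 without Control iWAT library 4 or 5, Control BAT library 1, 3 or 5 or Ai-α4KO BAT library 4.

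The depots also differed without the deletion. In Control mice 18 of the 51 members were lower in BAT than in iWAT (21% of all genes) and 6 were higher (17.5%). Of the 19 hydrolases 12 were lower in Control BAT and 1 was higher, Lipa (0.78 ± 0.12), with a median log2 difference of -0.79, while the 17 ATPase subunits had a median of 0.049, with 4 higher and 2 lower. The lowest differences were those of Laptm5 (-3.08 ± 0.30, adjusted p = 1.4e-07, edgeR), Ctss (-2.52 ± 0.28), Ctsc (-2.31 ± 0.21), Ctsh (-2.12 ± 0.17) and Ctsk (-2.03 ± 0.22), and all 14 macrophage markers were also lower in Control BAT (median -2.44). The members higher in Control BAT were Npc1 (1.05 ± 0.14), Lipa, and the subunits Atp6v1f (0.62), Atp6v0a2 (0.38), Atp6v1d (0.38) and Atp6v0e (0.35). The calls of Atp6v0a2, Atp6v1d and Atp6v0e were lost in 8, 6 and 6 of 11 other settings, among them library size alone and limma on FPKM. With single libraries left out, all 3 were lost without Control iWAT library 1 or Control BAT library 1 or 3, Atp6v0a2 also without Control iWAT library 4 or Control BAT library 5, Atp6v1d without Control iWAT library 2 or 5 or Control BAT library 2 or 5, and Atp6v0e without library 2 of either depot.

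In Ai-α4KO mice fewer members passed between the depots. Here 5 members were lower in BAT (11.7% of all genes), namely Man2b1, Ctsc, Asah1, Ctsh and Atp6v0d1, and 2 were higher (13.9%), Tfeb (1.05 ± 0.23, adjusted p = 0.00157, edgeR) and Atp6v0e2 (1.24 ± 0.35, adjusted p = 0.00919). The hydrolase median was -0.27, where the median of all genes in this comparison was -0.11. Ctss, which was -2.52 apart in Control mice, was -0.20 ± 0.26 apart here (adjusted p = 0.569, edgeR), and Npc1 went from 1.05 to 0.015 ± 0.14. All 7 of these calls were lost under some other setting, and none was left without the libraries with most muscle reads, where 4 Ai-α4KO iWAT and 2 Ai-α4KO BAT libraries remained. The plot of depot differences shows the hydrolases spread to the left along the axis of the Control mice and drawn towards 0 on that of Ai-α4KO mice.

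**Figure D4:**
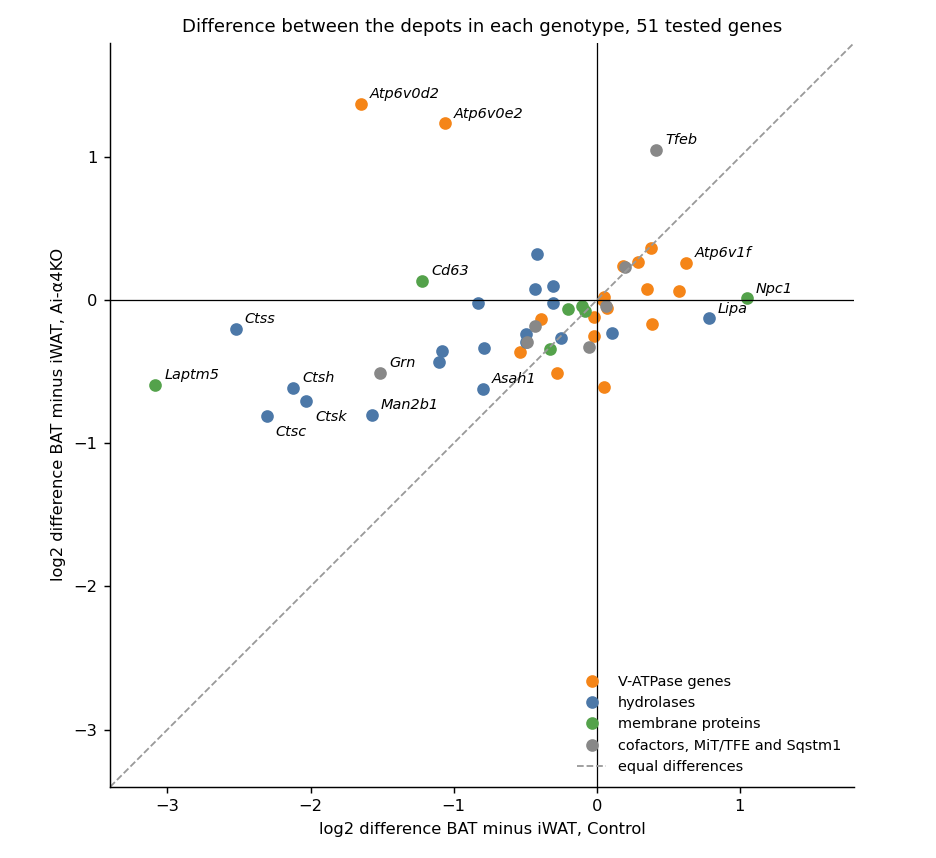
Log2 difference between BAT and iWAT of each of the 51 tested genes in Control (horizontal axis) and in Ai-α4KO mice (vertical axis), coloured by role, with the dashed line where both are equal. Laptm5 lies at -3.08 in Control and -0.59 in Ai-α4KO, and Atp6v0d2 and Atp6v0e2 are the genes with a negative difference in Control and one above 1 in Ai-α4KO.

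Library by library, the mean log2 CPM of the 17 ATPase subunits was 0.40 to 0.58 above the Control mean in Ai-α4KO iWAT and 0.63 to 0.73 above it in BAT, where Control libraries ranged from -0.14 to 0.095 and from -0.099 to 0.076. The 19 hydrolases were 0.85 to 1.12 above the Control mean in iWAT and 1.31 to 1.79 in BAT, and the membrane proteins 0.57 to 0.78 and 0.95 to 1.17. Macrophage markers were 1.77 to 2.15 and 3.25 to 4.08 above it, and adipocyte markers 1.28 to 2.07 and 0.76 to 1.92 below it. In BAT library 2 of Ai-α4KO was the highest for all of the ATPase, hydrolase, membrane protein and macrophage lists. The plot of list means shows that every Ai-α4KO library was above every Control library of its depot for each of the 3 classes.

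**Figure D5:**
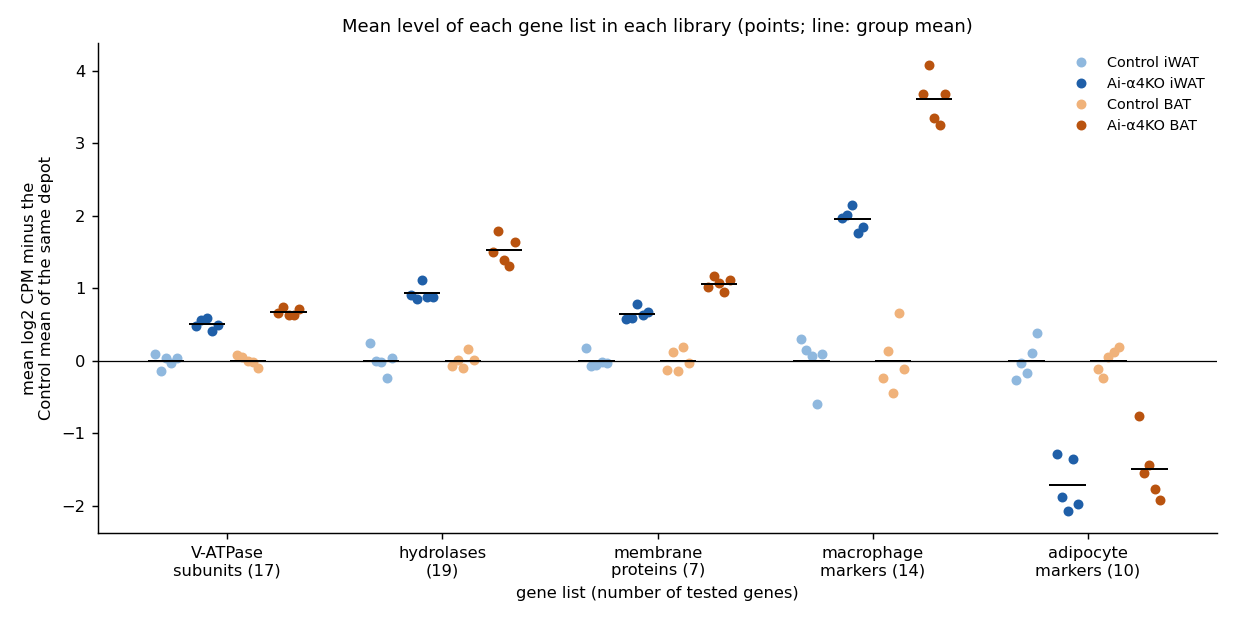
Mean log2 CPM of 5 gene lists in each library (points), relative to the Control mean of the same depot (vertical axis), for the 4 groups (colours, lines at group means). The hydrolases of Ai-α4KO BAT lie at 1.31 to 1.79, the ATPase subunits at 0.63 to 0.73 and the macrophage markers at 3.25 to 4.08.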

How the data were processed

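RNA-seq libraries of iWAT and BAT were paired-end reads of 150 bp. Libraries were made with a stranded mRNA kit. The submitters' processing notes name bcl2fastq 2, STAR 2.5.3a and mm10, and the counting tool is not given in the sources used here. The authors deposited expected counts per gene and FPKM values in 1 table. Expected counts were rounded and tested with edgeR 4.0.16 (quasi-likelihood, TMM, filterByExpr, R 4.3.3), within each depot for the genotype and over all 20 libraries for the interaction and the depot differences, with Benjamini-Hochberg adjustment over all genes tested and a threshold of 0.01. Displayed CPM share one TMM scale, and FPKM served for levels between genes. Alternatives were DESeq2 1.42.0, limma 3.58.1 on log2(FPKM + 1) and log2(FPKM + 0.1), other normalization and filters, a replicate block, single libraries left out and, chosen after seeing the data, libraries with muscle reads left out or muscle markers as a covariate.

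The members and lists were chosen with earlier results of these data known. Every member was accounted for, and of the other lists only genes listed with them were named with values, whatever their result, except some that are not reported here. Library totals of 24023371 to 50384446 counts limit precision for genes of few counts. In simulated data 200 genes, none of few counts, were changed, and every gene had the same dispersion of 0.05. For iWAT, 111 of 111 genes changed 4-fold and 74 of 89 changed 2-fold were called among 14604 genes. For BAT 104 of 104 and 84 of 96 were called among 14344, with 0 false calls in iWAT and 3 in BAT. Far more genes were called in the real data, so these rates need not hold there or for genes of few counts.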

Additional observations from a re-analysis of the deposited data

Results flagged for a closer look

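For 12 of 204 groups of 5 libraries (51 genes in 4 groups) 1 library stood apart from the other 4 by Dixon's criterion, where chance flags about 1 in 20 groups, or 10.2 here. Control iWAT library 1 was highest for Ctss (320 CPM, the others at 124 to 152), Gla (16.5 CPM, the others at 8.85 to 11.04) and Psap (1902 CPM, the others at 1427 to 1485), and library 5 of that group for Ctsb (3383 CPM). In Control BAT, library 1 was highest for Atp6v1f (126 CPM), library 2 for Laptm4a (709 CPM), and library 4 for Npc1 (144 CPM, the others at 89.4 to 102) and Laptm5 (27.9 CPM). In Ai-α4KO iWAT, library 1 was highest for Atp6v0c (439 CPM) and Tfeb (13.9 CPM), and library 2 lowest for Man2b1 (121 CPM, the others at 197 to 211). In Ai-α4KO BAT, library 3 was highest for Lamp2 (714 CPM, the others at 535 to 561).

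The effect of the deletion differed between the depots, by the interaction test of all 20 libraries, for 10 genes. As the log2 effect in BAT minus that in iWAT, the difference was 3.02 for Atp6v0d2, 2.49 for Laptm5, 2.32 for Ctss and 2.30 for Atp6v0e2. It was 1.51 for Ctsh, 1.5 for Ctsc, 1.36 for Cd63 and 1.32 for Ctsk. It was -1.03 for Npc1 and -0.91 for Lipa.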

How the results depend on the processing

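No called result turned its direction under any alternative run. The numbers of members higher stayed within 1.5 times of 33 in iWAT, 34 in BAT and 18 lower in Control BAT, and the numbers higher by at least 2-fold of 15 and 19, under each alternative. The number lower in iWAT, 0, became 1 with DESeq2, upper-quartile normalization, at least 10 counts in every library, the replicate block, one fit of all libraries or without the libraries with most muscle reads (1 also by 2-fold), and 2 at an adjusted p below 0.05. The number lower in BAT, 2, became 0 with library size alone, both limma fits, and both muscle settings, and 1 with the block. For the interaction 13 were higher at 0.05, and 0 were lower without Control iWAT libraries 1 and 4 or without the muscle libraries.

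In Control mice the number higher in BAT, 6, became 3 with library size alone, upper-quartile normalization, at least 10 counts, both limma fits, or without Control iWAT libraries 1 and 4. In Ai-α4KO mice the number higher, 2, became 5 with DESeq2 or at least 10 counts, 6 at 0.05 or without Control iWAT libraries 1 and 4, 1 with library size alone, upper-quartile normalization, limma on log2(FPKM + 0.1) or the block, and 0 without the muscle libraries. The number lower there, 5, became 10 with library size alone or limma on log2(FPKM + 0.1), 11 on log2(FPKM + 1), 13 at 0.05, 3 without filter, with at least 10 counts or without Control iWAT libraries 1 and 4, and 0 without the muscle libraries.

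With library size alone, limma on log2(FPKM + 1) and on log2(FPKM + 0.1), the ATPase median became 0.53, 0.52 and 0.53 in iWAT and 0.81, 0.80 and 0.80 in BAT. The membrane protein median became 0.77, 0.78 and 0.78 in iWAT and 0.95, 0.94 and 0.95 in BAT, and the hydrolase median 1.63, 1.58 and 1.62 in BAT. Upper-quartile normalization gave 0.30 for the ATPase and 0.56 for membrane proteins in iWAT. The ATPase median was 0.46 in BAT without filter and 0.49 in iWAT without the muscle libraries, and the membrane protein median 0.56 in iWAT without Control iWAT libraries 1 and 4. The hydrolase median stayed above the ATPase median in each of these. The causes were not tested.

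With single libraries left out, the number lower was 0 to 1 in iWAT, 1 in the fit without Ai-α4KO library 1, and 1 to 2 in BAT. The interaction had 0 to 3 lower, 0 without Ai-α4KO iWAT library 3. Control BAT had 3 to 6 higher, 3 without Control iWAT library 1 or Control BAT library 1 or 3. Ai-α4KO BAT had 1 to 7 higher and 0 to 3 lower, 7 higher without Ai-α4KO iWAT library 1. The ATPase median in BAT was 0.47 to 0.58. Of the 33 iWAT and 36 BAT calls, 27 and 34 held with each library left out.

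Same-numbered libraries did not deviate together across genes, so the numbers were not taken as pairs. Between genotypes r was -0.45 to 0.13 in iWAT and -0.15 to 0.21 in BAT. In iWAT 0 of 5 libraries and in BAT 1 of 5 were closest to their own number. Between depots r was -0.081 to 0.22 in Control and -0.27 to 0.24 in Ai-α4KO mice, with 2 of 5 closest to their own number in each genotype. The replicate block gave 30 calls among members in iWAT, 34 in BAT, 8 for the interaction, 22 in Control mice and 6 in Ai-α4KO mice. Genes with few counts, such as the 5 untested members, cannot be judged at this depth.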
